A study of Mus musculus with 3 samples.

Results

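Fatty acid oxidation and the targets of the nuclear receptor PPARα were described here through 44 genes measured by single-cell RNA sequencing of mouse liver. The genes were chosen by name, with earlier results of these data known, and all 44 were found among the 55357 genes of the count matrices. The series compared control mice (CON) with mice on a high-fat diet (HFD), a model of metabolic dysfunction-associated steatohepatitis, and mice given carbon tetrachloride (CCl4, labelled CCL4), a liver toxin used to induce fibrosis. All animals were male wild-type C57BL/6 mice that were 8 weeks old at the start. The CON mice were left untreated under standard conditions. The HFD mice were fed for 4 months on a diet in which fat supplied 60% of the calories, and the CCL4 mice ate normal chow for 3 months and then received intraperitoneal injections of 0.1 mL of 10% CCl4 solution 2 times per week for 4 weeks. Livers were dissociated by collagenase perfusion, the cells of 2 mice were pooled per condition, and hepatocytes and nonparenchymal cells were mixed 1:1. With 1 library per condition there was no replicate, no test across samples was possible, and every interval given is an exact 95% interval that covers counting error only.

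Long-chain fatty acids are activated to acyl-CoA, carried into mitochondria as carnitine esters, and shortened by repeated cycles of dehydrogenation, hydration, a second dehydrogenation and thiolysis. Very long chains are first shortened in peroxisomes, and cytochromes of the Cyp4a family oxidise the far (omega) end of the chain in the endoplasmic reticulum. In the liver PPARα, which binds fatty acids and pairs with RXR on DNA, drives transcription of many of these enzymes during fasting and lipid load, and the resulting acetyl-CoA feeds ketone body synthesis.

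Several members belong to gene clusters, which matters for how reads are assigned. In the GENCODE M21 annotation of GRCm38, Acot1 to Acot4 lie within chr12:83987861-84060402, a span of 72.5 kb. The 4 Cyp4a members lie within chr4:115486200-115621602, a span of 135 kb, and Acaa1a and Acaa1b within chr9:119148023-119350299, a span of 202 kb. In the last 500 bases of each transcript, which a 3′ library mainly samples, 26.8% of the 90-base windows of Acaa1a and 23.1% of those of Acaa1b were shared exactly with another gene, as were 47.0% of those of Cyp4a32, whereas none of those of Acot1 to Acot4, Cyp4a10, Cyp4a14 or Cyp4a31 were. Acaa1a, Acaa1b and Cyp4a32 are therefore uncertain to the extent that reads in the shared stretches could not be assigned. On their own strand, Acot3 and Acot4 also overlap the protein-coding gene Gm49366, Etfb overlaps Gm45233 and Acad11 overlaps Gm28305.

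The promoter sequences below belong to Acaa1b, Ehhadh, Acot1 and Acot3, which had the largest HFD over CON ratios, and to Acot4, another member of the Acot cluster. Each is the 250 bases upstream of the annotated start, 5′ to 3′ on the strand of the gene, from RefSeq on GRCm38.p6. They lie at chr9:119157094-119157343 (minus strand, Acaa1b), chr16:21787835-21788084 (minus strand, Ehhadh), chr12:84009252-84009501 (plus strand, Acot1), chr12:84051894-84052143 (plus strand, Acot3) and chr12:84038129-84038378 (plus strand, Acot4). Capitals mark the only stretch in these 5 sequences within 2 mismatches of the motif AGGTCANAGGTCA on either strand, the direct repeat to which PPARα and RXR bind.
Acaa1b: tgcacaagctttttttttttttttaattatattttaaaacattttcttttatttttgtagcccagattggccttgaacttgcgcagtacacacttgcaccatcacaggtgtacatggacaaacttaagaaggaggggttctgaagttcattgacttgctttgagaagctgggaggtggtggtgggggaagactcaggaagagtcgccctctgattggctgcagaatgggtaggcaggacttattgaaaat
Ehhadh: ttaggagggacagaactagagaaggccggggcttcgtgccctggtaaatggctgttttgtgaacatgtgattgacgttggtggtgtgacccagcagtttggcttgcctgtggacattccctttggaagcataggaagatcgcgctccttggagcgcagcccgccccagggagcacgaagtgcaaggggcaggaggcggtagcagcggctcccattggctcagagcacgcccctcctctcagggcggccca
Acot1: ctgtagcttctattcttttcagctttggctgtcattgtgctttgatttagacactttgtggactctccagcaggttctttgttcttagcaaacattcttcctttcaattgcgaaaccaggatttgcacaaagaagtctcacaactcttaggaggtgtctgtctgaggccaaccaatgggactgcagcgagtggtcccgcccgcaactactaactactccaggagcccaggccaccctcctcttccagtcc
Acot3: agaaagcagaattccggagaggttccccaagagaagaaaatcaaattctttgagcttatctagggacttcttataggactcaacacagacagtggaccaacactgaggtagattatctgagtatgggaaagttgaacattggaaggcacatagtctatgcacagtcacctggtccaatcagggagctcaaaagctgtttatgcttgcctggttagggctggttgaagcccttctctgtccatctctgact
Acot4: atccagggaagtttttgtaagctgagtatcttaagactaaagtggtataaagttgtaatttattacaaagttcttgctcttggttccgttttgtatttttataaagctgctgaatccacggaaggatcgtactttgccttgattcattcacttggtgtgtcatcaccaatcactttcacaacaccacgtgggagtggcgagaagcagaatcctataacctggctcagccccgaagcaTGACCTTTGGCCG

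The promoter table held 39 entries for 36 of the 44 members, each running from 250 bases upstream to 50 bases downstream of a start. Crat, Acaa2, Decr1, Hsd17b4, Cyp4a10, Cyp4a14, Cyp4a31 and Vnn1 had no entry, so the motif counts leave them out. The exact motif AGGTCANAGGTCA was in 0 of the 39 member promoters and in 13 of all 32851 promoters (0.0396%). With up to 2 mismatches it was in 3 of 39 member promoters (7.69%), those of Slc25a20, Etfa and Acot4, against 1268 of all promoters (3.86%). The single repeat unit AGGTCA, which overlaps the longer motif, was in 6 of 39 (15.4%) and in 5340 of all (16.3%). These are letter matches in a short window and say nothing of binding elsewhere.

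The libraries held 11245 (CON), 12984 (HFD) and 12761 (CCL4) barcodes with 49613255, 34985786 and 34061186 UMIs (unique molecular identifiers, 1 per captured molecule). Clusters were named from marker genes, and hepatocyte-like cells numbered 1532 in CON, 1172 in HFD and 7027 in CCL4, with medians of 8277.5, 3621.5 and 2287.0 UMIs. The conditions were carried by different clusters, namely 4 in CON (led by Steap4, Serpina3n and Il1r1), 32 in HFD (led by Cyp1a2, Glul, Cyp4a10 and Cyp4a14) and 38 and 40 in CCL4. Cluster 40, with 4077 cells, had a median mitochondrial share of 0.632%, against 4.70% in cluster 38 and 6.16% in cluster 4, so CCL4 values are also given for its 2950 cells in clusters of at least 2% (mitochondria-rich cells). An unnamed cluster of 3429 CON cells and another of 5204 HFD cells also had low mitochondrial shares, of 0.334% and 0.456%, and were left out of the hepatocyte-like class. RNA of hepatocytes was present in other classes. The summed level of 10 hepatocyte markers in T cell-like cells was 19923 CPM (UMIs scaled to a total of 1000000 per class and library) in CON, 47185 in HFD and 87976 in CCL4, against 81733, 79889 and 118135 CPM in hepatocyte-like cells. Acute-phase genes were highest in CON, the reference of every ratio, with a sum of 63003 CPM against 9828 in HFD and 9367 in CCL4. All 13 of 13 were at most 0.5-fold of CON in both HFD and CCL4. Pericentral landmark genes also differed between libraries, 6 of 11 being at least 2-fold higher in HFD and 8 of 11 at most 0.5-fold in CCL4. Of 11 dissociation stress genes compared, 10 were below CON in each treated library, with summed ratios of 0.570 in HFD and 0.539 in CCL4. The part of these differences in the member values was not tested.

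In hepatocyte-like cells the 44 members together made up 7118 CPM in CON, 17864 CPM in HFD and 7678 CPM in CCL4. The HFD over CON ratio of this sum was 2.51 (2.49–2.53) and the CCL4 over CON ratio 1.08 (1.07–1.09). In mitochondria-rich CCL4 cells alone the sum was 7861 CPM. The composition also differed. Cyp4a14 supplied 20.7% of the member UMIs in CON, 31.1% in HFD and 7.79% in CCL4, and Cyp4a10, Cyp4a14 and Acaa1b together supplied 30.2%, 53.2% and 16.1%.

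**Figure D1:**
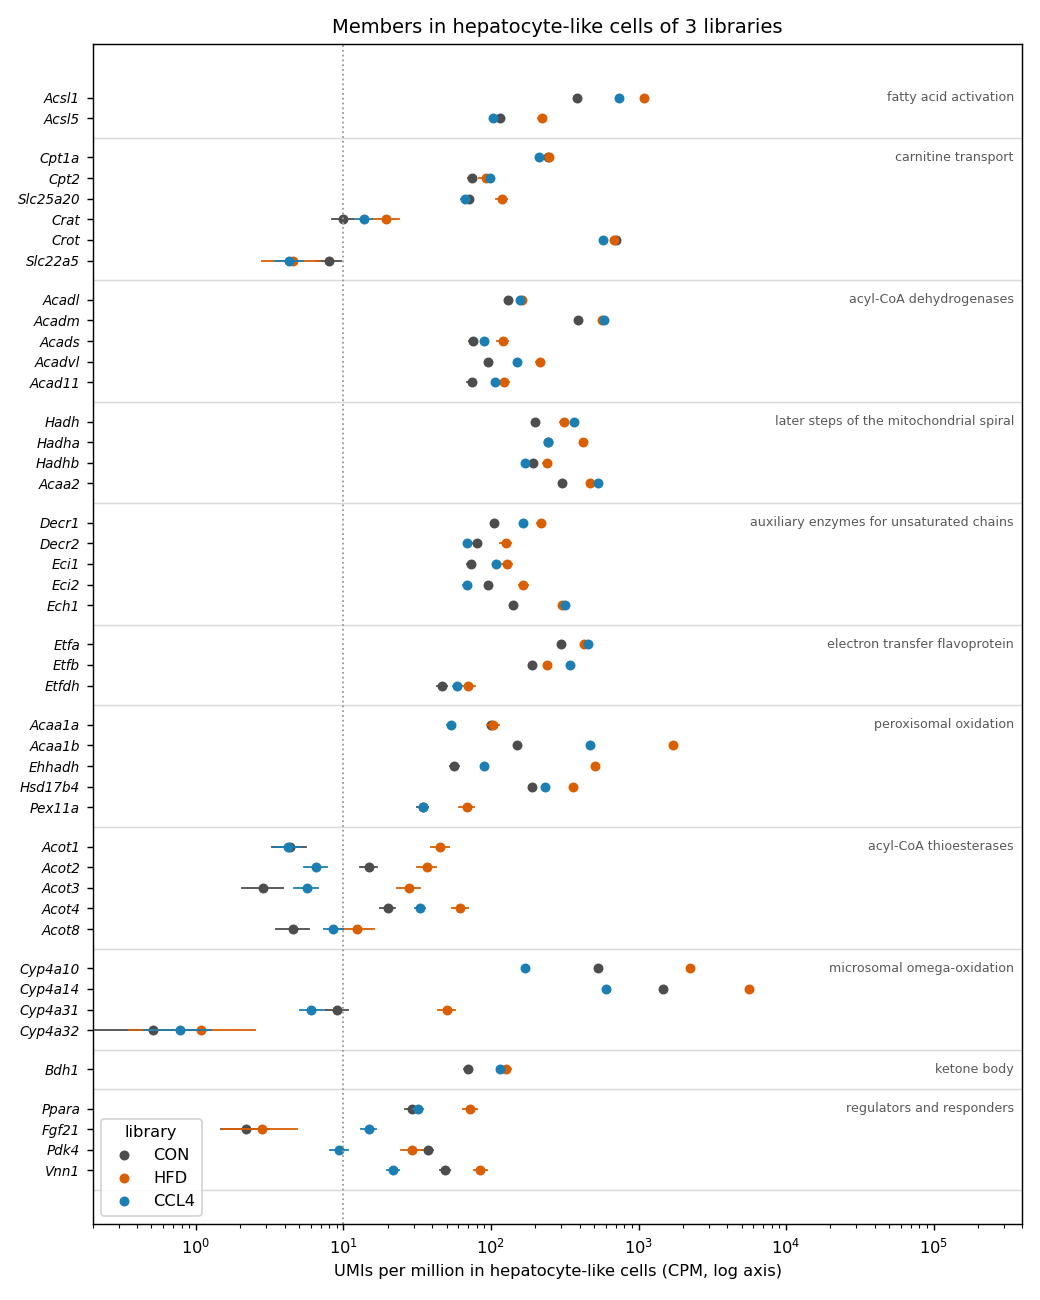
Level of each of the 44 members in hepatocyte-like cells of the CON, HFD and CCL4 libraries (CPM on a log axis; points are the value of 1 library each, lines its 95% Poisson interval, the dotted line the 10 CPM used as a minimum mean). HFD points lie to the right of CON for Acaa1b, Ehhadh, the Acot and the Cyp4a genes, whereas CCL4 points of Cyp4a10 and Cyp4a14 lie to the left of CON, at 170 and 598 CPM.

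Against CON, 40 members reached a mean of 10 CPM over the libraries and were compared, whereas Slc22a5, Acot8, Cyp4a32 and Fgf21 did not. Acot1, Acot3 and Cyp4a31 were below 10 CPM in CON and CCL4 and reached that mean only through HFD. A high HFD ratio was therefore built into their inclusion. In HFD 14 of the 40 members were at least 2-fold higher and 0 were at most 0.5-fold, against 6.64% and 4.66% of all 6625 genes compared. The median ratio was 1.74 over the members and 1.09 over all genes. The ratio itself was above 1 for 38 of the 40 members and for 3915 of all 6625 genes. Counting intervals lay above 1 for 36 members, below 1 for Crot and Pdk4, and held 1 for Cpt1a and Acaa1a. The share of all genes with an interval above 1 was not counted. In CCL4 2 members were at least 2-fold higher and 5 at most 0.5-fold, against 7.70% and 8.86% of all genes, with a median ratio of 1.23 over the members and 0.947 over all genes. In mitochondria-rich CCL4 cells these counts were 4 and 3, against 6.29% and 6.26% of all genes. Between the treated libraries, 13 of the 40 members were at least 2-fold higher in HFD than in CCL4 and 0 were at most 0.5-fold, against 6.04% and 2.57% of all genes. Hepatocyte-like cells of HFD held fewer UMIs than those of CON, and counted as UMIs per cell the member sum was 1.11 times CON, with 5 members at least 2-fold higher and 4 at most 0.5-fold. That scale lowers the HFD ratio of every gene by the same factor, for Cyp4a14 from 3.78 to 1.68. These 2 counts therefore carry the lower depth of HFD cells and do not set the members apart from other genes.

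**Figure D2:**
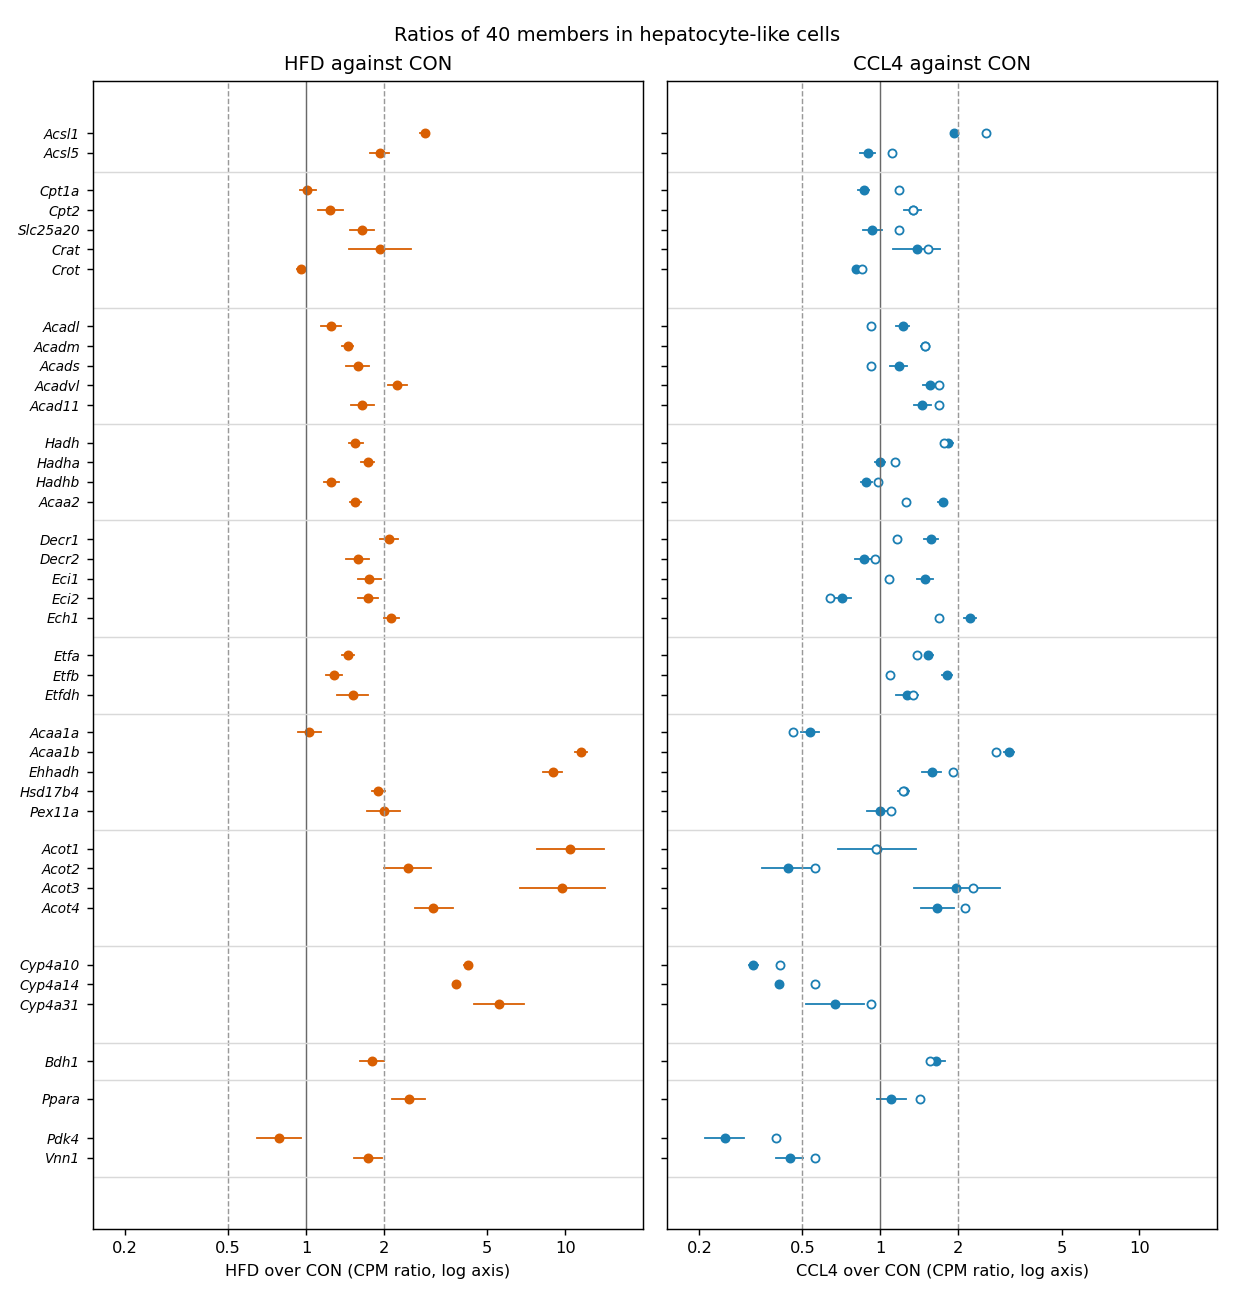
Ratio of CPM in HFD (left) and CCL4 (right) to CON for the 40 members compared, grouped by role, on a log axis (filled points with 95% counting intervals; open points use only mitochondria-rich CCL4 cells; dashed lines mark 0.5 and 2). The largest HFD ratios are those of Acaa1b (11.5), Acot1 (10.4), Acot3 (9.68) and Ehhadh (8.95), and the lowest CCL4 ratios those of Pdk4 (0.251) and Cyp4a10 (0.323).

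Peroxisomal oxidation had the largest summed HFD ratio of the roles, 5.19 (5.05–5.35), and its members were uneven. Acaa1b, a peroxisomal thiolase, was at 150 CPM (143–156) in CON, 1716 (1678–1754) in HFD and 469 (459–478) in CCL4, ratios of 11.5 (10.9–12.1) and 3.13 (2.99–3.29). Its neighbour Acaa1a, which encodes the same enzyme activity, was at 100, 103 and 53.6 CPM, ratios of 1.03 (0.926–1.14) and 0.535 (0.494–0.580). The 2 thiolase genes thus differed in response, with the reservation on shared sequence given above. Ehhadh, the bifunctional enzyme of the inducible peroxisomal pathway, was at 56.5 CPM (52.6–60.7) in CON, 506 (485–527) in HFD and 89.1 (85.0–93.3) in CCL4, ratios of 8.95 (8.24–9.72) and 1.58 (1.45–1.72). Hsd17b4, the bifunctional enzyme that also handles branched chains, was at 190, 360 and 233 CPM, ratios of 1.90 and 1.23. Pex11a, a peroxisome proliferation factor, was at 34.4, 68.5 and 34.4 CPM, an HFD ratio of 1.99 (1.72–2.30) just below the 2-fold limit.

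In hepatocyte-like cells, microsomal omega-oxidation moved in opposite directions in the treated libraries, from 2009 CPM in CON to 7833 in HFD and 776 in CCL4. Cyp4a14, a fatty acid omega-hydroxylase, was at 1472 CPM (1452–1493) in CON, 5564 (5497–5633) in HFD and 598 (588–609) in CCL4. Its ratios were 3.78 (3.71–3.85) and 0.406 (0.397–0.416), and mitochondria-rich CCL4 cells held 819 CPM, a ratio of 0.557 (0.543–0.570) that was no longer past the 2-fold limit. Cyp4a10, the neighbouring hydroxylase, was at 528 CPM (515–540), 2217 (2175–2261) and 170 (165–176), ratios of 4.20 (4.08–4.33) and 0.323 (0.310–0.336), and stayed past the limit in mitochondria-rich CCL4 cells at 0.410 (0.392–0.429). In the hepatocyte-like class as named, both genes were thus highest in HFD and lowest in CCL4. Over other settings their CCL4 ratios reached up to 0.930 and 0.577. In cells of low mitochondrial share the order of CON and CCL4 was the other way. Cyp4a14 was at 249 CPM in the large unnamed CON cluster and 313 in CCL4 cluster 40, and Cyp4a10 at 100 and 111 CPM. These levels were not far above those of T cell-like cells, which had the same order. Cyp4a14 was there at 226 CPM in CON and 263 in CCL4, and Cyp4a10 at 71.3 and 73.3. The part of free RNA in this order was not tested. In hepatocyte-like cells Cyp4a31 was at 9.04, 50.0 and 6.06 CPM, an HFD ratio of 5.54 (4.43–6.95). Cyp4a32 had 7, 5 and 16 UMIs in all and could not be compared at this depth.

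All 4 acyl-CoA thioesterases compared, which release free fatty acid from acyl-CoA, were at least 2-fold higher in HFD, at low levels. Of these, Acot1 and Acot3 were compared only because of their HFD level, so this count is not evidence for the group. Acot1, the cytosolic form, had 59 UMIs in CON, 208 in HFD and 86 in CCL4, or 4.34 CPM (3.30–5.59), 45.1 (39.1–51.6) and 4.20 (3.36–5.19). Its HFD ratio was 10.4 (7.75–14.1), whereas the CCL4 ratio of 0.969 (0.688–1.37) held 1. In HFD T cell-like cells Acot1 was at 43.8 CPM, or 97.1% of the hepatocyte-like level. The class with its highest level was B cell-like cells in HFD and cholangiocytes in CON and CCL4 (45.2 CPM in CCL4). The part of free RNA in these levels was not tested. Acot3, a peroxisomal form, was at 2.87, 27.7 and 5.62 CPM, an HFD ratio of 9.68 (6.71–14.2). Acot4, another peroxisomal form, was at 19.9, 61.7 and 33.0 CPM, an HFD ratio of 3.10 (2.62–3.68). The mitochondrial form Acot2 differed from its neighbours in the CCL4 library, at 14.8, 36.6 and 6.50 CPM, with ratios of 2.47 (2.00–3.04) and 0.438 (0.349–0.548). In mitochondria-rich CCL4 cells the Acot2 ratio was 0.561 (0.435–0.719), no longer past the limit. Acot8, below the minimum mean, was at 4.56, 12.3 and 8.55 CPM.

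At the entry to the pathway, summed activation was 2.65 times CON in HFD and 1.69 times in CCL4, whereas carnitine transport was close to CON. Acsl1, the main long-chain acyl-CoA synthetase of liver, was at 380 CPM (369–390) in CON, 1088 (1058–1119) in HFD and 732 (721–744) in CCL4, ratios of 2.87 (2.76–2.98) and 1.93 (1.87–1.99). In mitochondria-rich CCL4 cells it reached 971 CPM, a ratio of 2.56 (2.48–2.64), past the limit. Acsl5 was at 116, 222 and 103 CPM, and at 128 CPM in mitochondria-rich CCL4 cells. Cpt1a, which makes the carnitine esters at the outer mitochondrial membrane and is the rate-limiting step, was at 244 CPM (236–252), 247 (233–262) and 210 (204–216), an HFD ratio of 1.01 (0.947–1.09). Over all hepatocyte-like cells the HFD difference of Cpt1a, also a PPARα target, was within counting error, with an upper bound of 1.09, whereas within zones of the lobule its HFD over CON ratio was 0.720 (0.629–0.822) in pericentral and 1.26 (1.14–1.40) in periportal cells. The later carnitine steps were also within 2-fold, with Cpt2, which regenerates acyl-CoA inside mitochondria, at 74.2, 92.1 and 98.7 CPM and the carrier Slc25a20 at 71.5, 118 and 66.6 CPM. Crot, the peroxisomal carnitine transferase, was at 709, 678 and 572 CPM, and summed over the role the ratios were 1.04 (1.01–1.07) and 0.864 (0.846–0.883). In mitochondria-rich CCL4 cells the sum ratio was 0.979 (0.956–1.00). There Cpt1a and Slc25a20 had ratios of 1.18 (1.13–1.24) and 1.18 (1.08–1.29), on the other side of 1, whereas Crot stayed below 1 at 0.845.

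The mitochondrial cycle itself was moderately higher in both treated libraries, by 1.55 and 1.42 for the summed dehydrogenases and 1.53 and 1.39 for the later steps. Acadvl, the very-long-chain dehydrogenase, was at 95.6 CPM in CON, 215 in HFD and 149 in CCL4, and its HFD ratio of 2.25 (2.07–2.44) was the only one of these 9 genes past 2-fold. Acadm, the medium-chain dehydrogenase, was at 391, 567 and 583 CPM, ratios of 1.45 and 1.49. Acads and Acad11, had HFD ratios of 1.58 and 1.65 and CCL4 ratios of 1.18 and 1.45, and the long-chain form Acadl was at 130, 162 and 158 CPM. The subunits of the trifunctional protein, which carries out the last steps on long chains, differed by library, Hadha being at 243, 421 and 243 CPM and Hadhb at 192, 240 and 169 CPM. Hadh, which acts on shorter chains, was at 200, 311 and 363 CPM, and the thiolase Acaa2 at 305, 471 and 529 CPM, so for both the CCL4 value was the highest. In mitochondria-rich CCL4 cells Hadh, at 351 CPM, stayed above HFD, whereas Acaa2, at 380 CPM, was below it. In the same cells Acadl and Acads had ratios of 0.923 and 0.918, on the other side of 1.

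The auxiliary enzymes that prepare unsaturated chains were all higher in HFD, by 1.90 (1.83–1.98) in sum. Decr1, the mitochondrial dienoyl-CoA reductase, was at 105, 219 and 164 CPM, an HFD ratio of 2.09 (1.93–2.27). Ech1, a dienoyl-CoA isomerase, was at 142, 303 and 316 CPM, ratios of 2.13 (1.99–2.29) and 2.22 (2.11–2.34), and 1.69 in mitochondria-rich CCL4 cells. Decr2, Eci1 and Eci2 had HFD ratios of 1.58, 1.75 and 1.73, whereas the CCL4 ratios of Decr2 and Eci2 were 0.863 and 0.712. The electron transfer flavoprotein, which passes electrons from the dehydrogenases to the respiratory chain, had ratios between 1.27 and 1.81, with Etfa at 296, 428 and 454 CPM, Etfb at 189, 241 and 341 CPM (206 CPM in mitochondria-rich CCL4 cells) and Etfdh at 46.4, 70.4 and 58.9 CPM. Bdh1, which makes the ketone body beta-hydroxybutyrate, was at 70.3, 126 and 115 CPM, ratios of 1.79 (1.61–1.99) and 1.64 (1.52–1.77).

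Ppara itself was at 29.0 CPM (26.2–32.0) in CON, 72.1 (64.6–80.3) in HFD and 32.0 (29.6–34.6) in CCL4. The HFD ratio was 2.49 (2.14–2.88) and the CCL4 ratio 1.10, with an interval that held 1, and 1.42 (1.24–1.62) in mitochondria-rich CCL4 cells. Pdk4, the mitochondrial kinase that inhibits pyruvate dehydrogenase when fat is burned, was at 37.3 CPM (34.1–40.6), 29.2 (24.5–34.6) and 9.33 (8.06–10.8), ratios of 0.785 (0.644–0.951) and 0.251 (0.211–0.296). Vnn1, a pantetheinase and PPARα target, was at 48.7, 84.7 and 21.7 CPM, ratios of 1.74 (1.53–1.97) and 0.446 (0.395–0.504), the second being 0.561 (0.489–0.642) in mitochondria-rich CCL4 cells. Fgf21, a fasting hormone under PPARα control, was below the minimum mean and had 30 UMIs in CON, 13 in HFD and 303 in CCL4, or 2.20 (1.49–3.15), 2.82 and 14.8 (13.2–16.6) CPM. The CCL4 value of Fgf21 was also found in T cell-like cells, at 13.3 CPM.

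The counts of the lists below stand against 6.64% higher and 4.66% lower of all genes in HFD, and 7.70% and 8.86% in CCL4. Of 16 further genes of mitochondrial oxidation, 12 were compared, and 0 were past 2-fold in HFD and 4 higher in CCL4 (Acat1, Hsd17b10, Mcee and Pcca). Of 29 further peroxisomal genes, 24 were compared, with 2 higher in HFD (8.33%), and 3 higher and 1 lower in CCL4 (12.5% and 4.17%). On so few genes these were not far from the shares of all genes. Of 7 further ketone body genes, 5 were compared, with 2 higher in each treated library. Of 23 partners of PPARα and controls of oxidation, 19 were compared, with 5 higher in HFD and 3 in CCL4, including Acaca and Acacb, which make the malonyl-CoA that inhibits Cpt1a, with HFD ratios of 2.86 and 2.70, and Mlycd, which degrades it, with 2.15. Of 22 PPARα targets outside oxidation, 16 were compared, with 7 higher and 1 lower in HFD (Fabp1, the liver fatty acid binding protein, at 11496 and 33643 CPM, and Angptl4 at a ratio of 0.498), and 2 higher and 3 lower in CCL4.

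Along the liver lobule, members were skewed to pericentral cells in CON and HFD. Hepatocyte-like cells of each library were ordered by 12 pericentral minus 12 periportal landmark genes, none of them a member, cut into 3 equal groups, and the most pericentral group was set against the most periportal one at a limit of 1.5-fold. In CON, 22 of 37 members were higher in the pericentral group and 0 lower, against 14.7% and 7.25% of all genes compared. In HFD, 24 of 41 were higher and 1 lower, against 14.1% and 13.2%. Crat and Acot2 in CON, at 5.68 and 9.23 CPM periportal, reached the minimum mean only through the pericentral group. So did Acot8 in HFD, at 7.88 CPM periportal. A high pericentral ratio was therefore built into the inclusion of these members. In CCL4, 3 of 37 were higher (Crat, Acaa1a and Acaa1b) and 0 lower, against 4.93% and 9.68%, and in mitochondria-rich cells 7 of 37 were higher and 0 lower, against 3.16% and 2.11%. The member sum was 9315 CPM pericentral and 5947 periportal in CON, 22258 and 13920 in HFD, and 8363 and 7315 in CCL4. The groups also differed in depth, with medians of 7133.0 and 10855 UMIs in CON, and in CCL4 the median mitochondrial share was 0.873% pericentral and 3.21% periportal.

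Acaa1b had a pericentral over periportal ratio of 3.97 (3.55–4.45) in CON, 2.35 (2.22–2.49) in HFD and 1.73 (1.65–1.81) in CCL4. Cyp4a10 had 2.20 (2.08–2.32), 2.22 (2.11–2.33) and 1.30, and 2.04 (1.85–2.26) in mitochondria-rich CCL4 cells, close to the other libraries. Cyp4a14 was at 1.46 (1.41–1.51), 1.52 (1.48–1.57) and 1.03 (0.986–1.07), and at 1.60 (1.52–1.68) in mitochondria-rich CCL4 cells. Pex11a was pericentral in CON and HFD, with 2.41 (1.95–2.99) and 3.11 (2.30–4.26). Vnn1 was at 90.1 CPM pericentral and 29.1 periportal in CON, and at 109 and 56.3 CPM in HFD. Pdk4 had 1.64 (1.34–2.01) in CON and 5.00 (3.00–8.74) in HFD, where the periportal level was 10.7 CPM. Cpt1a was the exception, higher in periportal cells of HFD at 190 against 292 CPM, a ratio of 0.650 (0.560–0.753), against 1.14 (1.05–1.24) in CON. Ppara was pericentral in CON at 2.07 (1.63–2.63) and had 1.09 (0.837–1.43) in HFD, an interval that held 1.

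**Figure D3:**
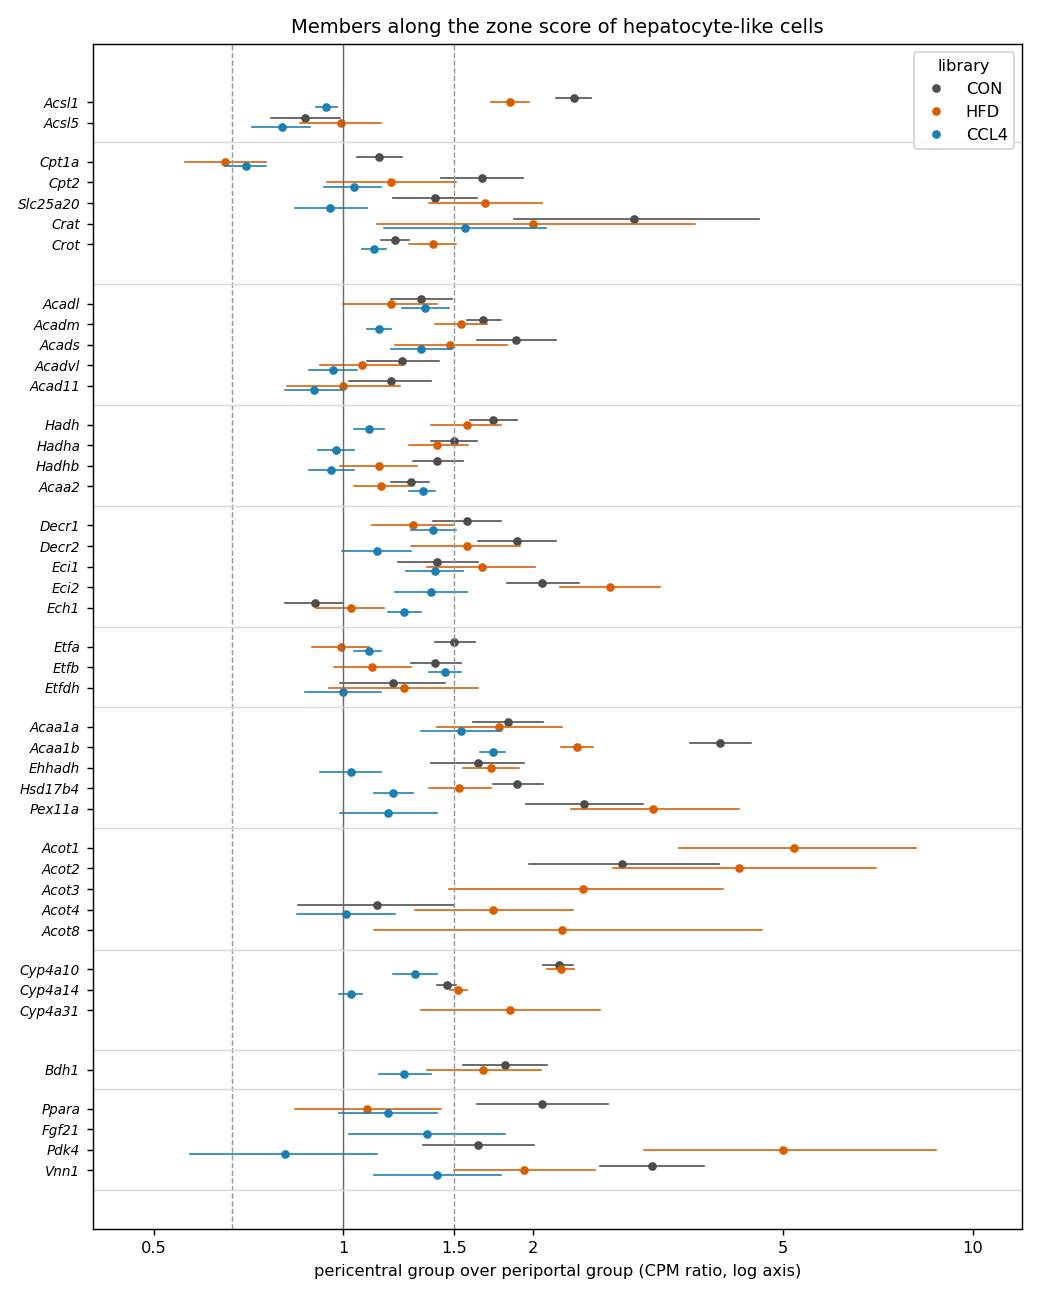
Pericentral over periportal CPM ratio of each member with a mean of at least 10 CPM in the groups compared, by library, on a log axis (points with 95% counting intervals; dashed lines mark 1.5-fold in each direction). CON and HFD points lie mostly to the right of 1, CCL4 points closer to 1, and Cpt1a lies to the left of 1 in HFD (0.650). Most landmark genes were also less separated between the groups in CCL4.

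The HFD difference was present in both the pericentral and the periportal group. These groups are ranks within each library and not matched positions. In HFD and CON, Cyp1a2, a pericentral landmark, was at 2361 and 634 CPM in the pericentral group and 74.3 and 6.93 in the periportal one. Cyp2f2 was at 94.8 and 56.8 CPM in the pericentral group and 1991 and 1220 in the periportal one. In the pericentral group 14 of 41 members were at least 2-fold higher in HFD than in CON and 0 were at most 0.5-fold, against 6.08% and 6.19% of all genes, and the member sum was 2.39 (2.35–2.43) times CON. In the periportal group 11 of 36 were higher and 1 lower (Pdk4, 0.331), against 8.51% and 4.98%, with a sum ratio of 2.34 (2.30–2.38). Acot3, Acot8 and Cyp4a31, at 3.04, 4.57 and 9.64 CPM in pericentral CON cells, reached the minimum mean of that group only through HFD. Acot1 did so as well, at 10.7 CPM in CON and 8.42 in CCL4 against 81.9 in HFD. Cyp4a31, at 7.64 CPM in periportal CON cells, did so in the periportal group too. A high HFD ratio was therefore built into their inclusion. Acaa1b had ratios of 8.13 pericentral and 13.7 periportal, Ehhadh 8.16 and 7.78, Cyp4a14 3.70 and 3.55, and Cyp4a10 3.83 and 3.79. The CCL4 sum ratio fell on opposite sides of 1 in the 2 groups, at 0.898 (0.886–0.910) pericentral and 1.23 periportal. The pericentral groups of CCL4 and CON differed in their landmarks, with Cyp2f2, a periportal one, at 802 and 56.8 CPM. Cyp2e1, a pericentral one, was at 695 and 3242 CPM. The part of this in the CCL4 ratios was not tested.

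Across cell classes of at least 50 cells, 32 of 44 members were highest in hepatocyte-like cells among 12 classes in CON, 26 among 12 in HFD and 18 among 11 in CCL4. Of the members with a mean of at least 10 CPM over the classes, these were 26 of 34, 25 of 40 and 17 of 37, against 10.8%, 12.8% and 7.71% of all such genes. The CON count of 32 rested on how the cells were chosen, and was 2 with at least 2000 UMIs per cell and 2 at a Leiden resolution of 2.0. The summed member level of the other classes was 0.304 to 0.513 of the hepatocyte-like level in CON, 0.300 to 0.756 in HFD and 0.427 to 0.896 in CCL4. The part of free RNA in the member levels was not tested. Cyp4a14 and Cyp4a10 were well below the hepatocyte-like level in T cell-like cells, at 15.4% and 13.5% of it in CON, 39.1% and 38.3% in HFD, and 263 and 73.3 CPM in CCL4. Acaa1b in T cell-like cells was at 57.9, 1533 and 406 CPM, or 38.7%, 89.3% and 86.6% of the hepatocyte-like level, so its HFD level hardly differed between these classes. In HFD the class with the highest Acaa1b level was erythroid-like cells, and Acaa1b was among the leading genes of their main cluster. Some members were above the hepatocyte-like level in T cell-like cells in each library. In HFD those at 115% or more of it were Decr1 (115%), Acadl (120%), Eci1 (122%), Ech1 (128%), Acaa2 (132%), Etfb (134%), Acot8 (139%) and Cyp4a32 (288%, on few UMIs). In CON they were Etfb (123%), Acot2 (157%) and Acot8 (312%). In CCL4 they were Acot8 (142%), Cyp4a32 (146%, on few UMIs) and Acot2 (148%). The share of all genes at this level was not counted. Pdk4 in T cell-like cells was at 10.8%, 15.4% and 34.3% of the hepatocyte-like level.

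**Figure D4:**
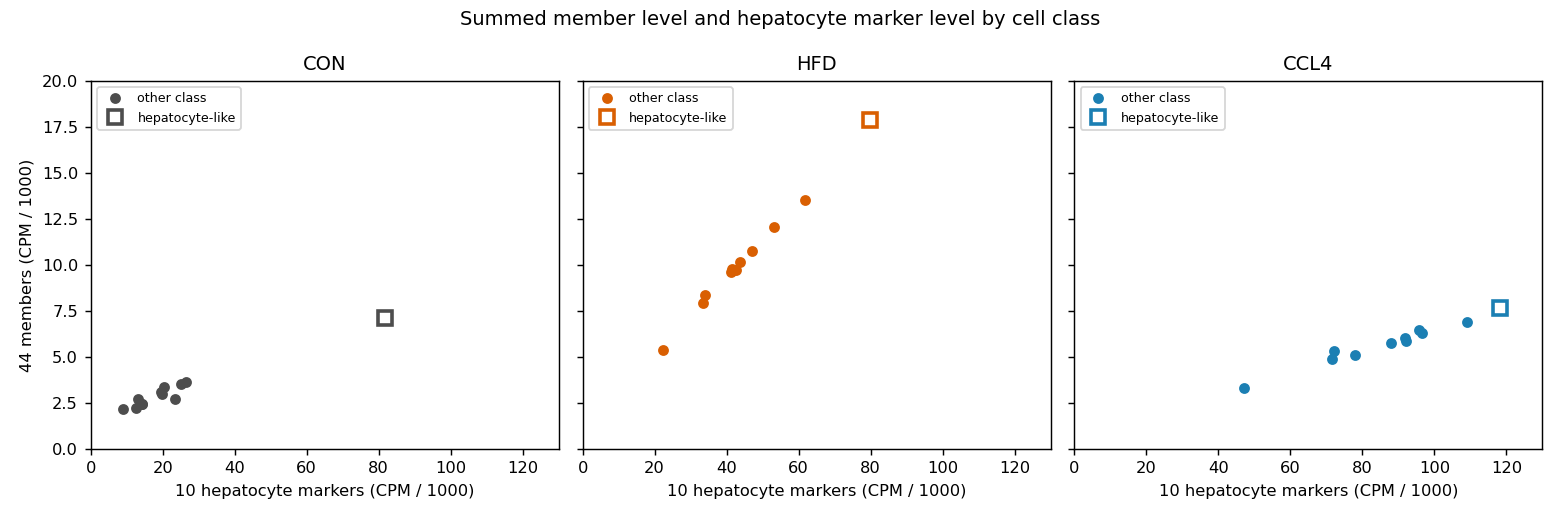
Summed CPM of the 44 members against summed CPM of 10 hepatocyte markers in each cell class of at least 50 cells, by library (circles, other classes; open squares, hepatocyte-like cells; both axes in CPM divided by 1000, from 0). In each library the hepatocyte-like cells hold the most of both, and in CCL4 the other classes reach up to 0.896 of their member level.

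Counted by cells, Cyp4a14 had a UMI in 97.5% of hepatocyte-like cells in CON, 100% in HFD and 60.2% in CCL4, and in 71.6%, 98.9% and 35.4% after each cell was thinned to 1000 UMIs. In T cell-like cells, with medians of 2380.0, 2214.0 and 2019.0 UMIs, the thinned shares of Cyp4a14 were 21.9%, 87.8% and 22.9%. Acaa1b had a UMI in 58.6%, 98.4% and 67.5% of hepatocyte-like cells, or 14.1%, 78.9% and 37.1% after thinning, and in T cell-like cells in 11.6%, 96.3% and 55.9%, or 4.51%, 77.5% and 32.4% after thinning. For Acaa1b in HFD and CCL4 the thinned shares of the 2 classes were nearly equal, so they do not separate expression from background. Ppara had a UMI in 21.0%, 23.9% and 8.55% of hepatocyte-like cells, or 2.86%, 7.08% and 2.88% after thinning.

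Within the CCL4 library, members differed between its clusters. Acsl1 was at 940 CPM in cluster 38 and 424 in the mitochondria-poor cluster 40, Cyp4a14 at 761 and 313, and Cyp4a10 at 196 and 111. Acaa1b had the opposite order, with 384 and 533 CPM. Clusters were formed from the expression of all variable genes, so these values are a description.

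The size of most ratios depended on how cells were chosen and scaled. Over 12 other settings, Acaa1b, Ehhadh, Acot1, Acot3 and Cyp4a31 stayed at least 2-fold higher in HFD in each, with lowest ratios of 5.09, 3.97, 4.09, 4.29 and 2.45. Acot1, Acot3 and Cyp4a31 had reached the minimum mean only through HFD. Cyp4a14, Cyp4a10, Acsl1, Acot4 and Ppara stayed so in 11 of 12, the exception being UMIs per cell. Acadvl stayed so in 9, Decr1 and Ech1 in 8 and Acot2 in 7, and on the CPM scale Decr1 fell to 1.13 and Ech1 to 1.09 with each library clustered on its own, and Acot2 to 1.08 with the 8% highest Scrublet scores left out. Of the 7 members past the limit in CCL4, 0 stayed past it in all 12 settings, Acaa1b and Pdk4 doing so in 11, Cyp4a10 in 10, Cyp4a14 and Ech1 in 8 and Acot2 and Vnn1 in 7.

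**Figure D5:**
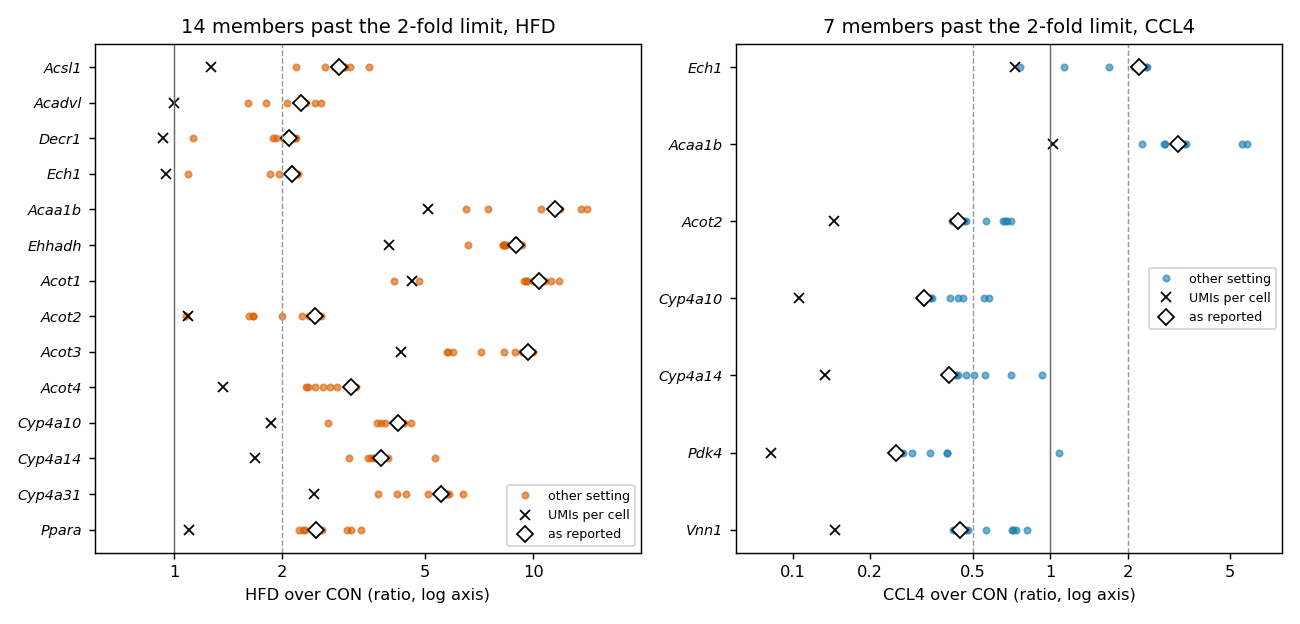
Ratio to CON of the 14 members past 2-fold in HFD (left) and the 7 past 2-fold in CCL4 (right) under 12 other settings, on log axes (diamonds, as reported; crosses, UMIs per cell; circles, the other settings; dashed lines, the 2-fold limits). Acadvl, Decr1 and Ech1 fall to 0.996, 0.928 and 0.946 in HFD as UMIs per cell, while Acaa1b does not go below 5.09.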

How the data were processed

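Freshly isolated liver cells were sequenced on the 10x Genomics Chromium 3′ platform. The files deposited by the authors hold whole-number UMI counts for each gene in each barcode, from Cell Ranger (7.2.0 per the file headers) without normalization. The published methods name mm10 as the reference and the submitters' processing notes name GRCm39 and Seurat, and the build of the counts was left unresolved, so member positions were taken by Ensembl identifier from GENCODE M21 (GRCm38), which holds 52081 of the 55357 identifiers. The selection of barcodes as cells is not given in the sources used here. Group membership came from the sample labels, with 1 library per condition.

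Cells needed 500 UMIs, 200 genes and a mitochondrial share of no more than 30%, which kept 11204, 12983 and 12758 in CON, HFD and CCL4. Scrublet marked 3, 0 and 3 barcodes, so doublet removal did not work here. Pairs of libraries shared 36, 49 and 52 barcodes. The libraries were clustered together (2000 variable genes, 30 principal components, 15 neighbours, Leiden resolution 1.0; scanpy 1.11.5, Python 3.11.15, numpy 2.4.6, scipy 1.17.1, pandas 2.3.3). A cluster was named by at least 3 markers of a class. UMIs were summed per class and library and scaled to CPM. Levels carry exact Poisson intervals and ratios exact conditional ones. Genes with a mean of at least 10 CPM were compared, and members of at least 50 CPM in a library, or past the 2-fold limit, were named. On simulated data, 95.9% of intervals held the true ratio for HFD against CON (6465 genes) and 95.3% for CCL4 (6451 genes), and 0 unchanged genes were called. These data were drawn from the CON profile with counting error alone. They check the calculation and say nothing of false calls from mice, dissociation, free RNA or the choice of cells. Alternatives covered cell filters, doublets, clustering, scaling, thresholds and zones. The members and lists were chosen with earlier results of these data known, and the alternatives by zone and with unnamed clusters after these data had been seen.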

Additional observations from a re-analysis of the deposited data

Results flagged for a closer look

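The member sum was also higher in HFD than in CON in cells that the comparisons above did not use. In the 2 large unnamed clusters of low mitochondrial share, 3429 CON and 5204 HFD cells, the HFD over CON ratio of the sum was 2.09. Acaa1b was at 189 and 2071 CPM there, Ehhadh had a ratio of 9.67 (8.82–10.6), Cyp4a14 9.78 (9.44–10.1) and Cyp4a10 9.77 (9.24–10.3), and 12 of 38 members were at least 2-fold higher and 0 at most 0.5-fold, against 9.27% and 4.47% of all genes there. Among the members counted as higher, Acot1 (3.74 and 47.6 CPM) and Cyp4a31 (2.66 and 27.8 CPM) reached the minimum mean there only through HFD. A high HFD ratio was therefore built into their inclusion. Cpt1a, level in hepatocyte-like cells, had 1.94 (1.77–2.13).

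In T cell-like cells, which are not hepatocytes, the member sum was 2960 CPM in CON, 10754 in HFD and 5734 in CCL4, and the HFD over CON ratio was 3.63 (3.57–3.70). Acaa1b had a ratio of 26.5 (23.5–29.9), Ehhadh 15.8 (12.7–19.7), Cyp4a10 11.9 (10.7–13.3) and Cyp4a14 9.62 (9.04–10.2) in these cells. The hepatocyte markers there stood at 19923 CPM in CON and 47185 CPM in HFD, and their part in these ratios was not tested.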

How the results depend on the processing

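No paired analysis was possible because each condition had 1 library. The counts of members below are given without the share of all genes past the limit at the same setting. By themselves they show how the calls move with the setting and do not set the members apart from other genes. The 14 members at least 2-fold higher in HFD became 5 as UMIs per cell, 30 at a fold of 1.5, 8 at a fold of 3 and 8 with at least 50 CPM. The 0 at most 0.5-fold became 1 with at least 2000 UMIs, with the 8% highest Scrublet scores left out, at resolution 2.0 and in the periportal group, and 4 as UMIs per cell. The HFD sum ratio of 2.51 was 2.35 with at least 2000 UMIs, 2.00 without the highest Scrublet scores, 2.38 at resolution 2.0, 2.07 with each library clustered alone, 2.61 without mitochondrial and the most abundant genes, 2.30 divided by the median ratio, 1.11 as UMIs per cell, 2.17 with unnamed clusters, 2.39 and 2.34 in pericentral and periportal cells and 2.09 in the 2 large unnamed clusters. The 2 members higher in CCL4 became 6 with at least 2000 UMIs or each library clustered alone, 7 at resolution 2.0, 4 in mitochondria-rich or pericentral cells or with either rescaling, 0 as UMIs per cell, 13 at a fold of 1.5 and 1 at a fold of 3. The 5 lower became 2 with at least 2000 UMIs, with unnamed clusters or at a fold of 3, 3 at resolution 2.0, in mitochondria-rich or periportal cells or with at least 50 CPM, and 27 as UMIs per cell. The scale of UMIs per cell lowers the CCL4 ratio of every gene by the same factor, as it does in HFD. Both CCL4 counts on that scale therefore carry the lower depth of CCL4 cells. The CCL4 sum ratio of 1.08 reversed to 0.354 as UMIs per cell and 0.898 in pericentral cells, and was 1.27 with at least 2000 UMIs or at resolution 2.0, 1.07 without the highest Scrublet scores, 1.10 in mitochondria-rich cells, 1.16 and 1.14 with the rescalings, 1.12 with unnamed clusters and 1.23 in periportal cells. Of the members past the limit, Acadvl, Decr1 and Ech1 reversed in HFD as UMIs per cell (0.996, 0.928 and 0.946), and in CCL4 Ech1 (0.766 with each library clustered alone, 0.729 as UMIs per cell) and Pdk4 (1.08 with each library clustered alone). The 32 members highest in hepatocyte-like cells of CON became 2 with at least 2000 UMIs and 2 at resolution 2.0, where hepatocyte-like CON cells numbered 854 and 885. By zone, the 1 lower member in HFD became 0 with 2 equal groups, the 3 higher in CCL4 became 6 with 4 groups, 1 with 2 groups, 15 at a lower fold limit and 7 in mitochondria-rich cells, and the 0 lower in CCL4 became 2 at that lower limit. Apart from the change of scale to UMIs per cell and the smaller sets of cells or genes, the cause was not tested.

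Depth limits Cyp4a32, Fgf21, Slc22a5 and Acot8, and the single library per condition leaves differences between mice, dissociation and diet together.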

Other observations

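Outside the members, Cyp4a12a was at 180 CPM in hepatocyte-like cells of CON, 344 in HFD and 5.67 in CCL4, and its neighbour Cyp4a12b at 62.2, 265 and 0.489 CPM. The CCL4 over CON ratio of Cyp4a12a was 0.0315. Lpl, which encodes lipoprotein lipase, was at 1.62 CPM in CON and 57.4 in HFD. G0s2, an inhibitor of triglyceride breakdown, had ratios of 3.34 in HFD and 15.7 in CCL4. It was among the leading genes of the mitochondria-poor CCL4 cluster 40, and its ratio in mitochondria-rich cells was not computed.

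Nuclear genes of the respiratory chain, which takes up the electrons from fatty acid oxidation, were higher in CCL4 and not in HFD at the 2-fold limit. Of 82 compared, 43 were at least 2-fold higher in CCL4 and 0 lower, with a median ratio of 2.01, whereas 0 were higher and 1 lower in HFD, with a median of 1.32. The shares of all genes were 7.70% higher and 8.86% lower in CCL4, and 6.64% and 4.66% in HFD. The list summed to 20858 CPM in CON, 42789 in all hepatocyte-like CCL4 cells and 31321 in the mitochondria-rich ones.

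The 188 CCL4 cells that fell into cluster 32, the cluster of most HFD hepatocyte-like cells, had a member sum of 11339 CPM, against 7678 in all hepatocyte-like CCL4 cells. Acaa1b was at 906 CPM, Cyp4a14 at 1629 and Acsl1 at 1415 in these cells. They were placed there by overall expression, members included, so these values are a description.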
